A study of Mus musculus with 3 samples.

Results

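Collagen genes were taken as every gene whose symbol in the platform annotation is Col followed by a number, the letter a and a number, and 42 of the 18193 genes on the array met this. They were read by 82 probe sets naming 1 gene alone, and each gene took its value from the probe set of highest mean signal over the arrays. RNA of FACS-sorted muscle stem cells (MuSC, the satellite cells of skeletal muscle) was measured on 3 arrays, 1 for each condition. Fresh MuSC were taken directly after sorting, MuSC −OSM (the untreated culture) after 3 days of culture in medium with 10% FBS, and MuSC +OSM after 3 days in the same medium with Oncostatin M (OSM), a cytokine of the interleukin-6 family, at 100 ng/mL. The mice were wild-type C57BL/6, aged 8 weeks, and per the study's methods muscle was digested with enzymes before the sort, which kept CD34+ α7 integrin+ cells and removed cells bearing CD45, CD11b, CD31 or Sca1. With 1 array per condition there is no replicate check, no test was possible, and the differences given here are those between these arrays. The study describes its OSM expression data as a mean of biological replicates, of which others were not analysed here, and its methods give another share of serum for the usual culture than the labels do for these arrays.

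Collagens are matrix proteins built of 3 chains wound into a triple helix, and each gene encodes 1 chain. Fibrillar collagens (types I, II, III, V, XI, XXIV and XXVII) form the cable-like fibrils of connective tissue, whereas type IV chains join into the sheet of the basement membrane, which in muscle wraps each fiber together with its satellite cells. Type VI forms beaded filaments next to the basement membrane, FACIT collagens lie on the surface of fibrils, and transmembrane collagens span the cell membrane with the helix outside. In mice, type V and type VI collagen have each been shown to act in the satellite cell niche, the former through the calcitonin receptor.

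Values are MAS5 signals in arbitrary units, with a mean of 200 on each array after trimming the ends. Signals of different probe sets are not on one scale, so levels are compared between arrays and not between genes. Sums over markers, given below, weigh each gene by the signal of its probe set, so 1 gene can make up most of a sum. Signals under 40, the median over the arrays, were set to this floor. A gene entered a comparison (was measured) if either array exceeded the floor, and a fold that involves a raised signal is a lower bound, written "at least". Fresh MuSC stood apart in array quality, since the 3′ to 5′ ratio of the β-actin control was 2.35 there, 1.40 without OSM and 1.41 with OSM, and the median signal was 53 against 36 and 32. Of the satellite cell markers listed, 7 of 7 were above the floor in fresh MuSC and 5 of 7 in each culture. Cd34 and Calcr, the calcitonin receptor gene, were under it in both cultures. The summed signal of these markers was 23566 in fresh MuSC, 3753 without OSM and 4736 with OSM. In the same order, Pax7 had 4006, 282 and 431 and Myf5 had 7016, 561 and 1855. Itga7 ran the other way with 499, 1808 and 1238. In bulk RNA a lower signal may come from fewer cells of a type or from less RNA per cell, and these cannot be told apart.

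Most measured collagen genes were higher in fresh MuSC than in either culture. Between the cultures the classes parted, with Col12a1 and the type I and III genes higher in MuSC +OSM than in MuSC −OSM and the type IV genes Col4a1 and Col4a2 lower. Of the 42 genes, 34 (81.0%) were above the floor in fresh MuSC, 22 (52.4%) without OSM and 23 (54.8%) with OSM, against 65.8%, 58.9% and 57.0% of all genes. Above the floor in fresh MuSC and in neither culture were 10 collagen genes (23.8%, against 8.89% of all genes). They were Col4a3, Col4a4, Col9a1, Col9a3, Col11a1, Col11a2, Col14a1, Col15a1, Col20a1 and Col22a1. Under the floor on each array were 6 genes, namely Col2a1, Col4a6, Col6a4, Col6a5, Col9a2 and Col10a1.

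Between MuSC +OSM and MuSC −OSM, 26 collagen genes were measured. At least 2-fold higher with OSM were 7 (26.9%), against 6.07% of the 11271 genes measured, and at least 2-fold lower were 3 (11.5%), against 4.39%. The higher genes were Col1a1, Col1a2, Col3a1, Col6a2, Col12a1, Col23a1 and Col27a1, and the lower ones Col4a1, Col4a2 and Col25a1. Of the cultures, Col17a1, Col23a1, Col24a1 and Col27a1 were above the floor with OSM alone, so they could only be higher there. Col23a1 and Col27a1 were no longer 2-fold higher with the floor at 80. Above it without OSM alone were Col4a5, Col8a2 and Col13a1, which could only be lower with OSM. With differences in both directions, the median log2 ratio of the collagen genes was 0.17, close to that of all genes at -0.01, and it was -0.18 with the floor at 20. The share of higher genes among these calls was 70.0%, and 81.8% with the arrays centred on a common median.

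Between fresh MuSC and MuSC −OSM, 35 collagen genes were measured. At least 2-fold higher in fresh MuSC were 23 (65.7%), against 20.4% of 12755 genes, and at least 2-fold lower were 2 (5.71%), against 15%. The lower genes were Col5a2 and Col25a1. The median log2 ratio was 1.90, against 0.14 for all genes. A gene measured through fresh MuSC alone had to be higher there, so these counts describe the arrays and support nothing further. The same holds for the counts of fresh MuSC against MuSC +OSM and for those by class below.

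Between MuSC +OSM and fresh MuSC, 35 collagen genes were measured. At least 2-fold lower with OSM were 22 (62.9%), against 17.2% of 12483 genes, and at least 2-fold higher were 3 (8.57%), against 13.8%. The higher genes were Col8a1, Col12a1 and Col25a1. The share of higher genes among these calls was 12.0%, and 23.8% with the arrays centred on a common median. Each pair of these comparisons shares an array, so they are not independent of each other.

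**Figure D1:**
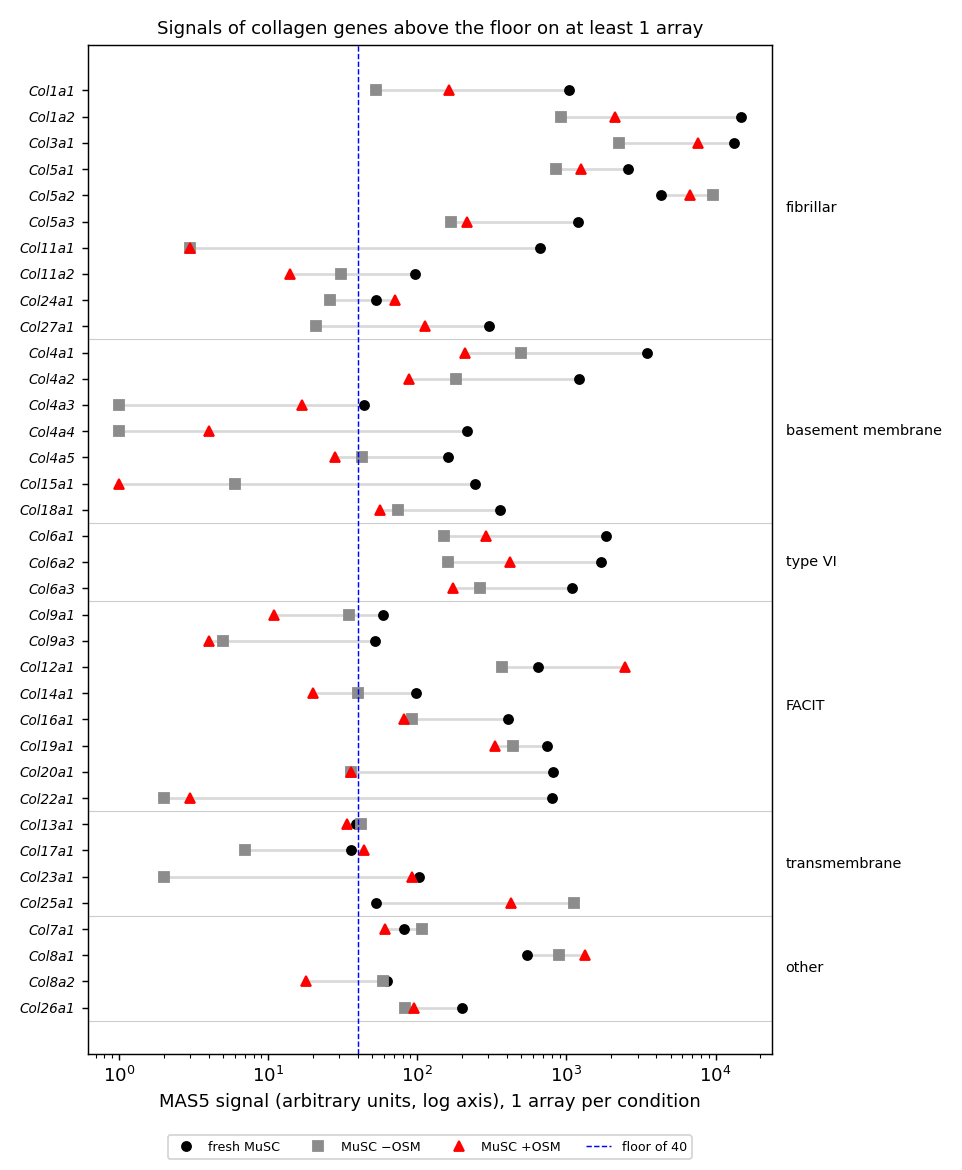
MAS5 signal (log axis) of the 36 collagen genes above the floor of 40 (dashed line) on at least 1 array, by class. Black circles stand for fresh MuSC, gray squares for MuSC −OSM and red triangles for MuSC +OSM, each from 1 array. Fresh MuSC lie farthest right for most genes, Col12a1 has its highest signal in MuSC +OSM at 2460, and Col25a1 and Col5a2 have theirs in MuSC −OSM, at 1121 and 9581.

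Markers of several other cell types were high on the fresh MuSC array. Of the fibroblast markers on the array, 8 of 8 were above the floor in fresh MuSC, 3 without OSM and 6 with OSM, and their summed signal was 30103, 2113 and 2942. Gsn, with 11696, 1890 and 2086, gave most of the sum in each culture. With OSM, Pdgfra and Lum lay just above the floor at 43. For tenocytes, the cells of tendon, 5, 2 and 2 of 5 were above the floor and the sums were 11219, 543 and 666 in the same order. Scx, a tendon transcription factor of that list, ran the other way with 48, 327 and 104. It was 6.81-fold lower in fresh MuSC than in the untreated culture. For Schwann cells, which ensheathe nerve, 3, 1 and 3 of 3 were above it and the sums were 4287, 104 and 211. Smooth muscle and pericyte markers summed to 9554, 19610 and 14243, with 5, 3 and 4 of 5 above the floor, and Acta2 gave most of each sum with 6543, 19053 and 13114. Endothelial markers summed to 1138, 91 and 80, with 3, 1 and 0 of 5 above the floor and Pecam1 and Emcn under it on each array. Leukocyte markers summed to 119, 169 and 76, with 1 of 5 above the floor on each array and Ptprc, Itgam and Cd3e under it. The part of these cells in the collagen signals of fresh MuSC was not tested. Between the cultures, 2 of 6 measured fibroblast markers (33.3%, against 6.07% of all genes), Dcn and Thy1, were at least 2-fold higher with OSM. As far lower were 0, against 4.39% of all genes. Dcn, Pdgfra and Lum were above the floor with OSM and not without it, so they could only be higher. The pericyte marker Pdgfrb, which fibroblasts also express, was 5.31-fold higher with OSM than without. Its signals were 661 in fresh MuSC, 139 without OSM and 738 with OSM, although the summed smooth muscle and pericyte signal was lower with OSM. Tenocyte markers split, with Fmod 3.15-fold higher and Scx 3.14-fold lower with OSM. Pdgfra, which defines fibro-adipogenic progenitors, had signals of 140 in fresh MuSC, 17 without OSM and 43 with OSM. The part of such cells in the difference with OSM was not tested either.

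Of 10 measured fibrillar genes, 8 had fresh MuSC at least 2-fold above the untreated culture and 1 as far below it, with a median log2 ratio of 2.69. With OSM 4 of 8 were at least 2-fold higher than without it and 0 lower, against 6.07% and 4.39% of all genes. The median was 1.01. It ranged from 0.55 with the floor at 80 to 1.27 with the arrays centred on a common median. With the mean of all probe sets it was 0.63. Of these 8 genes, Col24a1 and Col27a1 were under the floor without OSM and could only be higher. Type I collagen, the main collagen of tendon and muscle connective tissue, consists of the chains of Col1a1 and Col1a2. The signal of Col1a1 was 1037 in fresh MuSC, 53 without OSM and 164 with OSM. That of Col1a2 was 14778, 925 and 2123. For both chains MuSC +OSM thus lay between the other arrays. It was 3.09-fold above MuSC −OSM for Col1a1 and 2.30-fold for Col1a2, and 6.32-fold and 6.96-fold below fresh MuSC. Col3a1, whose chain forms type III collagen alone and often shares fibrils with type I, had 13247, 2249 and 7683. MuSC +OSM was 3.42-fold above MuSC −OSM, a log2 ratio that 1.69% of measured genes reached. Against fresh MuSC it was 1.72-fold lower, but this depended on the probe set and the scaling. The second probe set of Col3a1 read 2153 in fresh MuSC and 804 with OSM, or 2.68-fold lower. With the mean of all probe sets the log2 ratio to fresh MuSC was -1.10, and after centring -0.06.

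Type V collagen, which sits in the core of type I fibrils and sets their width, had chains that did not run together. Col5a1 had signals of 2592 in fresh MuSC, 859 without OSM and 1260 with OSM. Col5a3 had 1195, 168 and 217, so it was 7.11-fold higher in fresh MuSC than in the untreated culture and 1.29-fold higher with OSM than without. Col5a2 ran the other way from both, with 4292, 9581 and 6775, which was 2.23-fold lower in fresh MuSC than in the untreated culture and 1.41-fold lower with OSM than without. After quantile normalization, and with the mean of its probe sets, Col5a2 was no longer 2-fold lower in fresh MuSC. Within 2-fold on the arrays of both cultures were thus each of the 3 chains of type V.

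The minor fibrillar genes were low in culture. Col11a1, a chain of the cartilage fibril collagen type XI, had 664 in fresh MuSC and 3 in each culture, at least 16.6-fold higher in fresh MuSC. Its partner chain Col11a2 had 96, 31 and 14, with fresh MuSC at least 2.40-fold above the untreated culture, but under 2-fold with the floor at 80, after centring and after quantile normalization. Col27a1, a fibrillar collagen of cartilage and other tissues, had 302, 21 and 112, so MuSC +OSM was at least 2.80-fold above MuSC −OSM and 2.70-fold below fresh MuSC, the latter under 2-fold after centring at a log2 ratio of -0.70. Col24a1 had 53, 26 and 71, near the floor on each array. Col2a1, the type II collagen of cartilage, was under the floor with 31, 3 and 2.

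The stretches of 250 bases before the annotated start of Col1a2 and Col3a1 are shown because both genes were higher with OSM and these stretches overlap no annotated gene. They are from RefSeq on GRCm38.p6, 5′ to 3′ along the gene, and capitals mark matches on either strand to 5 motifs, namely the CCAAT box (CCAAT), the TATA box (TATAAA), the GC box (GGGCGG), the STAT site (TTCNNNGAA) and the AP-1 site (TGANTCA).
Col1a2 (chr6:4505368-4505617, plus strand): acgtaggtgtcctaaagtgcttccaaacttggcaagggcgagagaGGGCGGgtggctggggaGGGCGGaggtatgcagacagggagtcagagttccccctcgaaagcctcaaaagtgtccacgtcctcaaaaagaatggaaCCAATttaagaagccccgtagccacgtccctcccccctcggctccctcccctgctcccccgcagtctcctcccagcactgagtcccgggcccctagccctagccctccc
Col3a1 (chr1:45311288-45311537, plus strand): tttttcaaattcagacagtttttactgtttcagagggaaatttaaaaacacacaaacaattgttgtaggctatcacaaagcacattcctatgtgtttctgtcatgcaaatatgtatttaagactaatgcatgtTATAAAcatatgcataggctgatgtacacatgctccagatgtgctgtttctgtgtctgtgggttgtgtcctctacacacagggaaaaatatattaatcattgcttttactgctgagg
The stretch of Col1a2 holds a CCAAT that begins 109 bases before the start and GGGCGG at 205 and 188 bases, with 62.0% G and C. That of Col3a1 holds TATAAA at 117 bases and has 35.2% G and C. TTCNNNGAA occurs in neither of these windows.

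Basement membrane genes ran opposite to the fibrillar ones between the cultures. Fresh MuSC were at least 2-fold above the untreated culture in 6 of 7 measured genes and as far below it in 0. Of these 7 genes, 3 were above the floor in fresh MuSC alone and could not be lower there. With OSM, 0 of 4 were at least 2-fold higher than without it and 2 were lower. The median log2 ratio was -0.73 here. Col4a1 and Col4a2 encode the chains of the type IV collagen found in nearly every basement membrane. Col4a1 had signals of 3448 in fresh MuSC, 493 without OSM and 208 with OSM. Col4a2 had 1225, 182 and 88. Both were thus highest in fresh MuSC and lowest in MuSC +OSM, which was 2.37-fold and 2.07-fold below MuSC −OSM and 16.6-fold and 13.9-fold below fresh MuSC. With the arrays centred on a common median, Col4a2 was lower with OSM by less than 2-fold, at a log2 ratio of -0.88.

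The other type IV chains serve restricted membranes, such as those of kidney and smooth muscle. Col4a4 had 215 in fresh MuSC, 1 without OSM and 4 with OSM, so fresh MuSC were at least 5.38-fold above either culture. Col4a5 had 160, 43 and 28, and was 3.72-fold higher in fresh MuSC than in the untreated culture. Its other probe set gave 72, 56 and 43, or 1.29-fold. Col4a3 lay just above the floor in fresh MuSC at 44, with 1 and 17 in the cultures, and Col4a6 was under it with 14, 38 and 7. Col15a1 and Col18a1 encode the multiplexins, collagens of the basement membrane zone, the second of which is the source of endostatin. Col15a1 had 243, 6 and 1, with fresh MuSC at least 6.08-fold above either culture. Col18a1 had 360, 74 and 56, with fresh MuSC 4.86-fold above MuSC −OSM and MuSC +OSM 1.32-fold below it. Over all genes of this class measured between the cultures, 4 of 4 had a lower signal with OSM. Of these, Col4a5 lay near the floor, and a second probe set of Col18a1 gave 87 without OSM and 86 with OSM, or 1.01-fold.

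For type VI, fresh MuSC were at least 2-fold above the untreated culture in 3 of 3 measured genes, and between the cultures the chains parted. Col6a1 had signals of 1838 in fresh MuSC, 152 without OSM and 291 with OSM. Col6a2 had 1716, 161 and 420. Col6a3, the third and longest chain, had 1085, 265 and 173. Fresh MuSC were 12.1-fold, 10.7-fold and 4.09-fold above MuSC −OSM for the 3 genes in this order. With OSM, Col6a2 was 2.61-fold higher than without it and Col6a1 1.91-fold, just short of 2-fold, whereas Col6a3 was 1.53-fold lower. The ratios of Col6a2 and Col6a3 with OSM over without it were 4.0-fold apart. A type VI monomer takes 1 chain of each of these 3 genes. Col6a4 and Col6a5, alternatives to the third chain, were under the floor, with at most 8 and 27 in fresh MuSC.

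Col6a1 and Col6a2 are neighbors on chromosome 10 with no protein-coding gene annotated between them, and the 250 bases before one annotated start of each are shown with the same marks because both signals were higher in MuSC +OSM and in fresh MuSC. A second annotated start of Col6a2 has a window that lies within the gene, is not shown, and holds GGGCGG or its reverse at 67, 15 and 11 bases.
Col6a1 (chr10:76726045-76726294, minus strand): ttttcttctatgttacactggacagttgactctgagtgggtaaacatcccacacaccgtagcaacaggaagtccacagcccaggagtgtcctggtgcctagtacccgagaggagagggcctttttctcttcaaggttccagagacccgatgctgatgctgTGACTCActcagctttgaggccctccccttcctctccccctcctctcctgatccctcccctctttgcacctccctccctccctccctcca
Col6a2 (chr10:76623631-76623880, minus strand): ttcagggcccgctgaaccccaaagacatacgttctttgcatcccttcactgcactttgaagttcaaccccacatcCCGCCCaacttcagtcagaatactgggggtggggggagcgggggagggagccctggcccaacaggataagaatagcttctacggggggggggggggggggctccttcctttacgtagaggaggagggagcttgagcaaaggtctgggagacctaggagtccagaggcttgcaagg
The stretch of Col6a1 holds TGACTCA, an AP-1 motif, 90 bases before the start, and that of Col6a2 holds GGGCGG on the other strand at 175 bases. No motif of the list occurs in both windows shown.

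The FACIT genes include Col12a1, whose ratio with OSM over without it was large. Higher in fresh MuSC than in the untreated culture by at least 2-fold were 4 of 8 measured genes and lower were 0. Of these 8 genes, 5 were above the floor in fresh MuSC alone and could not be lower there. Between the cultures 1 of 3 was as far higher with OSM and 0 lower. Col12a1, whose product binds the surface of type I fibrils in dense connective tissue and muscle, had signals of 645 in fresh MuSC, 372 without OSM and 2460 with OSM. It was 6.61-fold higher with OSM than without, a log2 ratio that 0.47% of measured genes reached, and 3.81-fold above fresh MuSC, though with the mean of all its probe sets the latter was under 2-fold, at a log2 ratio of 0.74. A second probe set of the gene gave 247, 122 and 506, or 4.15-fold, and its other 2 probe sets were under the floor on each array.

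Col22a1 and Col20a1 were the opposite case. Col22a1, a collagen of tissue junctions such as that of muscle and tendon, had 803 in fresh MuSC, 2 without OSM and 3 with OSM, at least 20.1-fold higher in fresh MuSC. A probe set of its kind can also match related transcripts, and its other probe sets gave smaller ratios, with 304 in fresh MuSC for at least 7.60-fold and with 250 against 52 for 4.81-fold. Col20a1, another FACIT gene, had 813, 36 and 36, and its 4 probe sets ranged from 329 to 813 in fresh MuSC and from 2 to 36 in the cultures. Col16a1 had 408, 92 and 81, with fresh MuSC 4.43-fold above MuSC −OSM. Col19a1, whose product has been found in muscle and at basement membranes, had 737, 436 and 334, within 2-fold between fresh MuSC and MuSC −OSM, and a second probe set of the gene read 370, 456 and 355. Col14a1 had 98, 40 and 20, with fresh MuSC 2.45-fold above MuSC −OSM, but it was under 2-fold both after centring and after quantile normalization. Col9a1 and Col9a3, chains of the cartilage collagen type IX, lay near the floor with 59 and 52 in fresh MuSC, and Col9a2 was under it.

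Like Col5a2, the transmembrane gene Col25a1 was lowest in fresh MuSC and highest in MuSC −OSM. It encodes a membrane collagen that in mice is needed for motor nerves to grow into muscle, and its signals were 53 in fresh MuSC, 1121 without OSM and 425 with OSM. It was 21.2-fold higher in MuSC −OSM than in fresh MuSC, and 0.517% of measured genes had as low a ratio of fresh MuSC to MuSC −OSM. With OSM it was 2.64-fold lower than without and 8.02-fold above fresh MuSC. Its other probe set was under the floor on each array, so the result rests on 1 probe set. Col23a1 had 103, 2 and 93, at least 2.33-fold higher with OSM than without, but another of its probe sets read 60, 54 and 64 and differed by 1.19-fold. Col13a1, a collagen of the neuromuscular junction among other sites, had 39, 42 and 34, and Col17a1, a hemidesmosome component of skin, had 36, 7 and 44, so neither exceeded 44 on any array.

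The remaining genes belong to smaller groups. Col8a1, a short-chain collagen of vessel walls, had 544 in fresh MuSC, 889 without OSM and 1332 with OSM, so it was 2.45-fold higher with OSM than in fresh MuSC and 1.5-fold higher than without OSM. Its probe sets did not run together between the cultures, since another gave 169, 363 and 284. Col8a2 had 63, 59 and 18. Col7a1, which forms the anchoring fibrils of skin, had 81, 108 and 61. Col26a1 had 199, 83 and 95, with fresh MuSC 2.40-fold above MuSC −OSM, which was under 2-fold after centring and after quantile normalization. Col10a1, the type X collagen of growth plate cartilage, was under the floor.

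**Figure D2:**
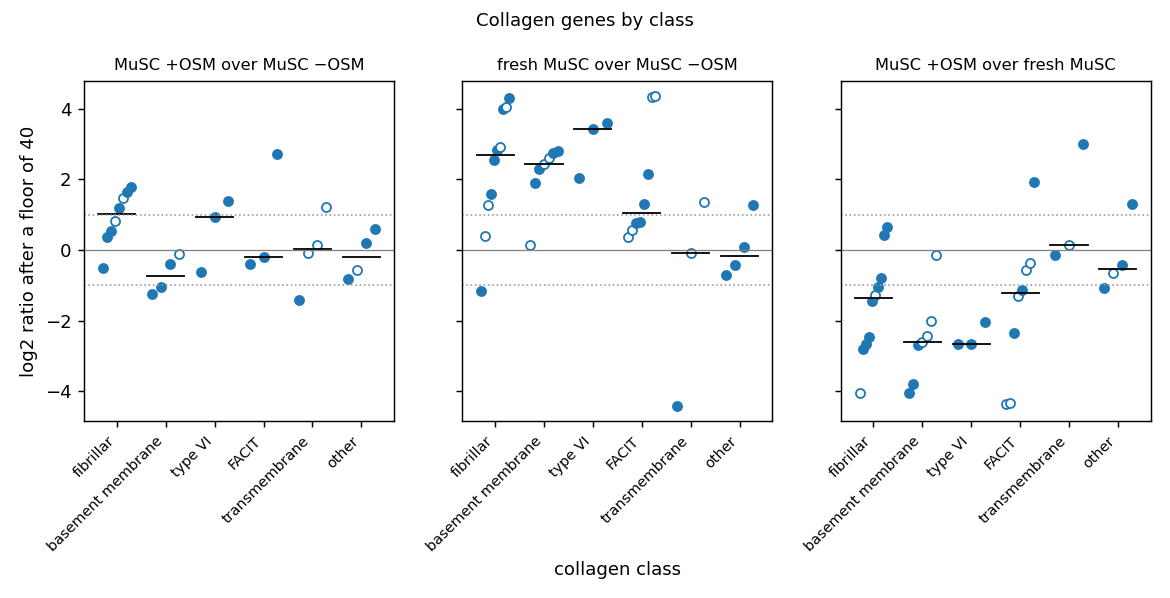
Log2 ratio after the floor of 40 for each measured collagen gene, by class, in the 3 comparisons, with open circles where 1 of the signals was under the floor, bars at class medians and dotted lines at 2-fold. Between the cultures (left) the fibrillar median lies at 1.01 and the basement membrane median at -0.73, and against MuSC −OSM (middle) fresh MuSC are higher in each of these classes, with medians of 2.69 and 2.43.

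Collagen genes that lie side by side in the genome did not always run together. Col4a1 and Col4a2, on chromosome 8 with overlapping ends, had log2 ratios of -1.25 and -1.05 between MuSC +OSM and MuSC −OSM and of 2.81 and 2.75 between fresh MuSC and MuSC −OSM. Col6a1 and Col6a2 had 0.94 and 1.38, and 3.60 and 3.41. In contrast, Col3a1 and Col5a2, neighbors on chromosome 1, had 1.77 and -0.50 with OSM, and 2.56 and -1.16 in fresh MuSC. Col4a3 and Col4a4, also on chromosome 1, could not be compared between the cultures, where both were under the floor.

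The probe sets that were not used gave a check of direction within the same arrays, though they share each array with those used. Of 15 other probe sets measured between MuSC +OSM and MuSC −OSM, 14 ran in the same direction as the one used, and the exception was one of Col8a1. Of the 8 that belonged to genes at least 2-fold apart, 8 ran in the same direction and 2, for Col3a1 and Col12a1, were at least 2-fold apart themselves. Col3a1 gave 228 in MuSC −OSM and 804 in MuSC +OSM on its second probe set, or 3.53-fold. Another probe set of Col1a2 gave 394 and 422, or 1.07-fold, against 2.30-fold on the one used, so the size of the Col1a2 difference depended on the probe set. The other of Col1a1 gave 19 and 66, at least 1.65-fold, that of Col4a1 gave 110 and 56, or 1.96-fold lower, and that of Col6a2 gave 102 and 183, or 1.79-fold. Between fresh MuSC and MuSC −OSM, 26 of 27 other probe sets ran in the same direction, and 16 of the 23 belonging to 2-fold genes were at least 2-fold apart themselves. Many of these, such as those of Col11a1 and Col20a1, were above the floor in fresh MuSC and not in MuSC −OSM. They could only be higher in fresh MuSC, so their direction is no check. Several genes, among them Col4a2, Col6a1, Col6a3, Col15a1 and Col16a1, had 1 probe set and no such check.

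**Figure D3:**
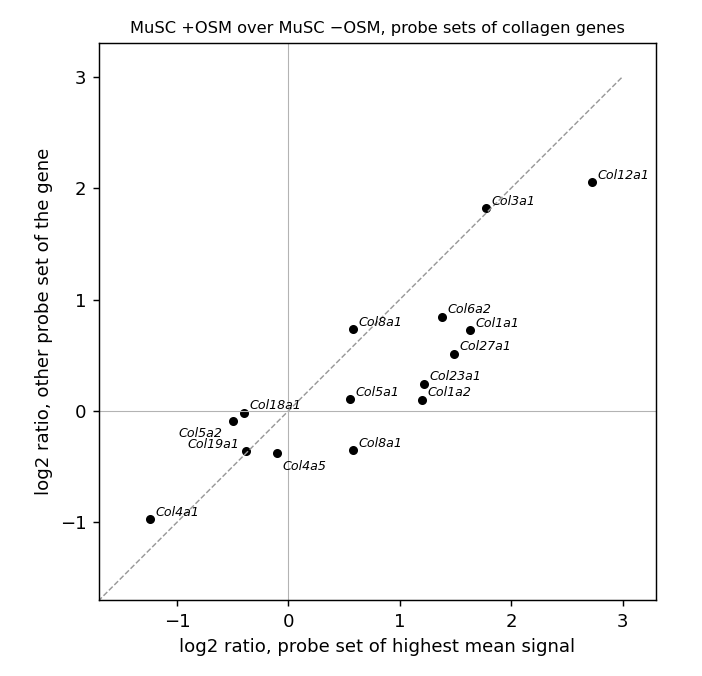
Log2 ratio of MuSC +OSM over MuSC −OSM for the 15 other probe sets of collagen genes (vertical) against that of the probe set used (horizontal), with a dashed line where both are equal. Col12a1 and Col3a1 are high on both axes, Col4a1 is low on both, and Col1a2 lies at 1.20 on the horizontal axis and near 0.10 on the vertical axis.

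Upstream sequence was listed for 33 of the 42 genes, in 36 windows, and not for Col1a1, Col2a1, Col4a3, Col5a2, Col9a3, Col12a1, Col14a1, Col22a1 and Col26a1. In the 250 bases before the start, the GC box letters GGGCGG occurred in 58.3% of the collagen windows and in 32.7% of the 32851 windows of all genes. The CCAAT box occurred in 36.1%, against 33.8% of all windows. The TATA box letters TATAAA occurred in 13.9%, against 12.4%. TTCNNNGAA occurred in 1 collagen window, that of Col6a5, against 7.02% of all windows, and TGANTCA in that of Col6a1, against 6.75%. Among genes 2-fold apart between the cultures, CCAAT was found in the windows of Col1a2, Col4a1, Col4a2 and Col25a1, which include higher and lower ones. These are matches of letters and not sites of binding.

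Genes that make, cross-link, assemble or bind collagen were followed with the collagens themselves, 48 of 53 listed being on the array. With OSM, 13 of 39 measured genes (33.3%, against 6.07% of all genes) were at least 2-fold higher than without. As far lower was 1 (2.56%, against 4.39%), and the median log2 ratio was 0.60, against -0.01 for all genes. Among the higher ones, Dcn, P3h3 and Itga1 were under the floor without OSM and could only be higher. The list was chosen with earlier results of these data known, so these counts describe it and support nothing further. By at least 2-fold, fresh MuSC exceeded the untreated culture in 19 of 43 (44.2%, against 20.4% of all genes) and lay below it in 5 (11.6%, against 15%). Of enzymes and chaperones that modify and fold the chains in the endoplasmic reticulum, 3 of 17 were higher with OSM by at least 2-fold and 0 as far lower. Plod3, a lysyl hydroxylase, had signals of 360 in fresh MuSC, 202 without OSM and 451 with OSM. Crtap, the partner of a prolyl hydroxylase, had 618, 197 and 449. P3h3, of the family of that hydroxylase, had 514, 31 and 85, at least 2.12-fold higher with OSM.

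Outside the cell, Bmp1, the protease that removes the carboxyl propeptide of fibrillar procollagens, had 809 in fresh MuSC, 65 without OSM and 570 with OSM, 8.77-fold higher with OSM. Pcolce, which enhances that cleavage, had 3210, 358 and 1032, and Pcolce2 was 1.65-fold higher with OSM than without. Of 4 measured cross-linking genes 2 were higher with OSM by at least 2-fold and 0 lower. Lox had 555, 1475 and 7247, so it was 4.91-fold higher with OSM than without, as type I and III genes were higher, but unlike them it was lower in fresh MuSC than in the untreated culture. Loxl3 had 386, 101 and 300. Loxl1 and Pxdn differed by 1.15-fold and 1.43-fold between the cultures. Of 7 measured genes of fibril assembly 4 were at least 2-fold higher with OSM, namely the proteoglycan genes Dcn, Fmod and Bgn and the fibronectin gene Fn1, which had 4402, 790 and 2764. Fmod had 4308, 153 and 482, and Bgn 3458, 3311 and 7946, so the latter was within 2-fold between fresh MuSC and MuSC −OSM. Dpt, which promotes fibril assembly, had 5094, 76 and 99, with 1.30-fold between the cultures. Lum, another proteoglycan gene, was at least 1.07-fold higher with OSM and Sparc 1.12-fold lower. Dcn, Fmod and Dpt also stand among the fibroblast and tenocyte markers above.

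Of 8 measured collagen receptor genes, OSM culture was at least 2-fold above the untreated one in 2 and below it in 1. The integrin gene Itga1, for a subunit of a collagen-binding integrin, had 80 in fresh MuSC, 18 without OSM and 84 with OSM, so the last was at least 2.10-fold above the untreated culture. Mrc2, which takes up collagen for degradation, had 791, 113 and 232. Adgrg1, an adhesion receptor that binds type III collagen, had 27, 105 and 48, lower with OSM by 2.19-fold while its ligand gene Col3a1 was higher.

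**Figure D4:**
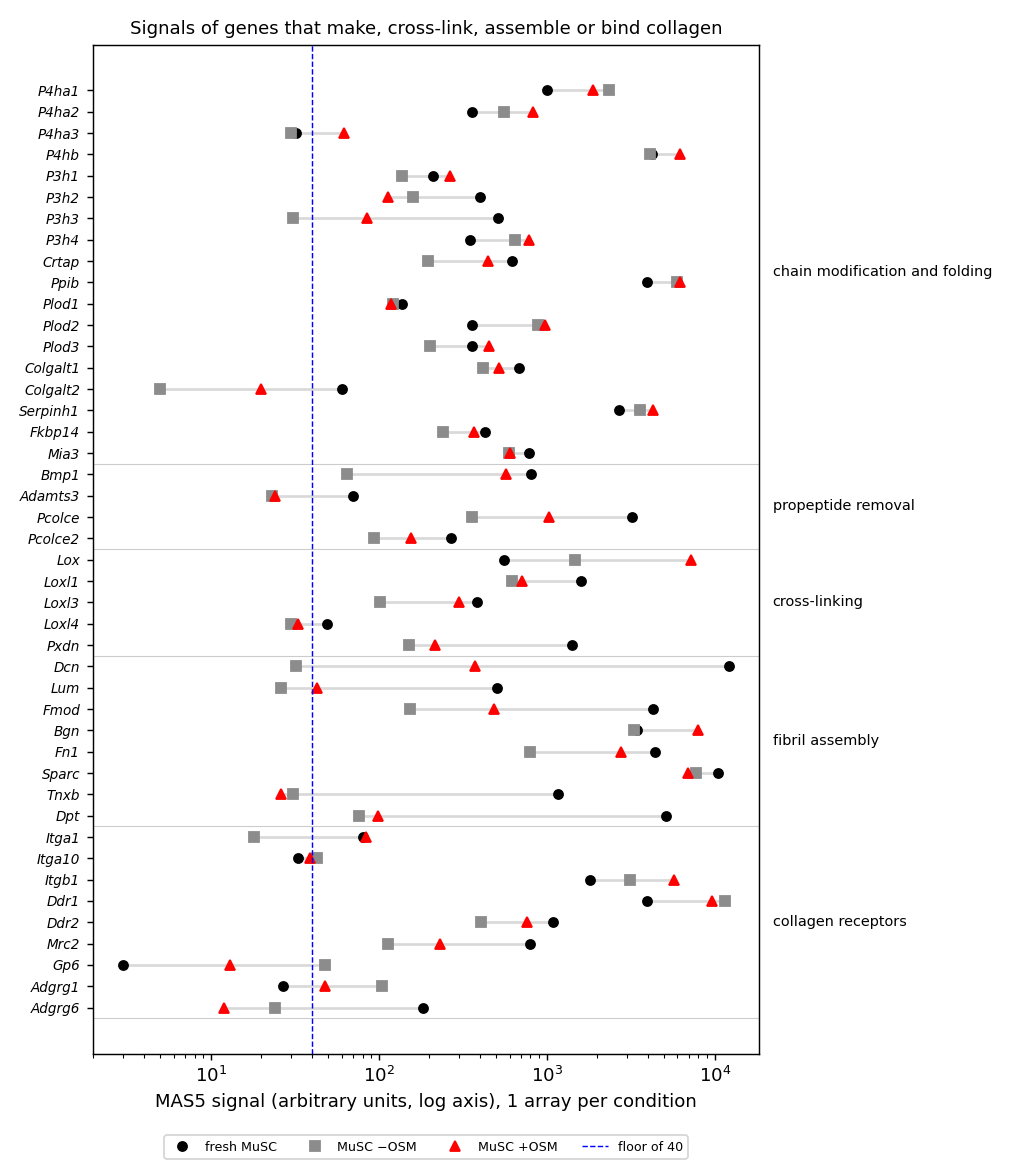
MAS5 signal (log axis) of genes that make, cross-link, assemble or bind collagen and lie above the floor of 40 (dashed line) on at least 1 array. Black circles stand for fresh MuSC, gray squares for MuSC −OSM and red triangles for MuSC +OSM, each from 1 array. Bmp1 lies at 65 without OSM, 570 with OSM and 809 in fresh MuSC, while Fmod lies at 153, 482 and 4308.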

How the data were processed

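RNA of fresh MuSC, MuSC −OSM and MuSC +OSM was hybridized to Affymetrix MOE_430_2 arrays, 1 per condition, after 3′ IVT Express amplification. The deposited values are the authors' MAS5 intensity, linear and scaled to equal trimmed means (version: not given in the sources used here). Control probe sets (64) were left out of 45037 others, of which 34945 name 1 gene, 932 several and 9160 none in the annotation used. The 42 collagen symbols were each found in RefSeq (GRCm38.p6), with 0 changed. Log2 ratios were taken in Python 3.11.15 with numpy 2.4.6 and pandas 2.3.3 after a floor of 40, and 2-fold was counted as a difference, with no test. Steps were tested on simulated data. Every collagen gene is named. Of genes that handle collagen, those 2-fold apart between the cultures are named, with some others of the same groups. The planned limit was 15 such genes, and more are named. Members and lists were chosen with earlier results of these data known. Alternatives were the scaling, floor, probe set and fold. Precision is limited by the number of arrays. Of the lists, Col6a6, Col21a1, Col28a1, Ly6a, Fkbp10, Adamts2, Adamts14, Loxl2 and Itga11 were not analysed here.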

Additional observations from a re-analysis of the deposited data

How the results depend on the processing

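No paired analysis was possible because each condition has 1 array, and for the same reason no array could be left out. Of the counts over all collagen genes, 9 alternative values differed by over 1.5 times from those given. The median log2 ratio in MuSC +OSM over MuSC −OSM turned from 0.17 to -0.18 with the floor at 20. Of the class medians 10 alternative values moved by over 1.5-fold and 101 did not, the former including the fibrillar one in fresh MuSC over MuSC −OSM, which was 1.89 with the mean of all probe sets. Between MuSC +OSM and MuSC −OSM, the count of genes at least 2-fold higher was 4 with the mean of all probe sets of a gene, where Col1a2, Col23a1 and Col27a1 were lost, and 3 at a threshold of 3-fold. The count lower was 5 with the floor at 20, 5 at 1.5-fold and 0 at 3-fold. Between fresh MuSC and MuSC −OSM, the count lower was 1 after quantile normalization, 1 with the mean of all probe sets and 1 at 3-fold. With the arrays centred on a common median, 5 genes were higher in MuSC +OSM than in fresh MuSC.

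Centring moved the median log2 ratio of all genes from -0.01 to 0.15 in MuSC +OSM over MuSC −OSM, from 0.14 to -0.36 in fresh MuSC over MuSC −OSM, and from -0.14 to 0.56 in MuSC +OSM over fresh MuSC. The collagen median minus that of all genes was 0.17 and after centring 0.02 in the first comparison, 1.76 and 1.77 in the second, and -1.16 and -1.45 in the third. Among all genes, the share of higher among 2-fold calls went from 58.0% to 72.2%, from 57.6% to 30.0%, and from 44.5% to 80.2%, and after quantile normalization it was 54.4%, 46.7% and 54.8%. Signs turned with a scaling for Col8a2 in fresh MuSC over MuSC −OSM and for Col7a1 and Col23a1 in MuSC +OSM over fresh MuSC, each within 2-fold as first measured. With the mean of all probe sets the log2 ratio of Col12a1 was 1.19 in MuSC +OSM over MuSC −OSM and 0.74 over fresh MuSC, and that of Col25a1 was -0.70 with OSM over without, since probe sets under the floor entered. Of the values for single genes 96 moved by over 1.5-fold and 453 did not. Signals under the floor have no order, so absence is not shown for genes there.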
